A study of Mus musculus with 6 samples.

Results

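The genes of glycolysis and of the fate of pyruvate were compared in mouse embryonic stem cells after 24 h and 48 h of stimulation with FGF2. The set holds 35 genes, chosen by symbol from the 51912 gene identifiers of the deposited table, and covers glucose uptake, every step from hexokinase to pyruvate kinase, lactate formation and export, the gate into the mitochondrion and the entry to the pentose phosphate pathway. The cells were of the R1 line, an established mouse embryonic stem cell line. All libraries came from cells first kept naive in 2iLIF (inhibitors of MEK and GSK3 with the cytokine LIF) and then moved to the serum-free medium N2B27 with FGF2 at 100 ng/ml. RNA was taken after 24 h in 3 libraries and after 48 h in another 3. Libraries from 2iLIF or from N2B27 without FGF2 were not analysed here, so the effects of FGF2, of the change of medium and of time in culture cannot be told apart. The labels do not say whether replicates were separate cultures, and p-values measure only the spread between these libraries.

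In glycolysis, glucose is taken up by facilitative transporters, trapped by hexokinase, committed by phosphofructokinase and cleaved by aldolase, and the resulting trioses are oxidised to pyruvate with a net gain of ATP. Pyruvate is then reduced to lactate and exported, or enters the mitochondrion and is oxidised by the pyruvate dehydrogenase complex, which pyruvate dehydrogenase kinases switch off by phosphorylation. Most steps have several isoenzymes, encoded by separate genes with different kinetics and tissue distribution. Pluripotent cells are known for rapid glycolysis, and the passage from the naive to the primed state is known for a shift away from mitochondrial oxidation.

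The libraries held between 19574969 and 23133148 estimated counts. The 8 markers of pluripotent cells were all detected and summed to between 4471 and 4495 CPM (counts scaled to a common library total) at 24 h and between 3831 and 3908 CPM at 48 h. Of them 4 were called higher at 48 h and 4 lower, where 30.9% and 31.9% of all genes tested were. Nanog fell from 694.7 ± 24.6 to 174.4 ± 6.47 CPM, and Epcam rose from 71.3 ± 3.76 to 168.7 ± 1.71 CPM (SD, n = 3). The 8 fibroblast or feeder markers summed to between 2.54 and 3.35 CPM at 24 h and between 2.53 and 3.92 CPM at 48 h, with Postn and Lum at 0 in every library. Within that sum, Dcn had 0 counts in every 24 h library and 1.06, 1.14 and 1.44 CPM at 48 h and was called higher, and Col1a1 was called lower (1.03 ± 0.24 and 0.304 ± 0.11 CPM, SD, n = 3). The 7 primitive endoderm markers summed to between 9.56 and 10.98 CPM at 24 h and between 6.54 and 7.17 CPM at 48 h. Among them Gata4 was called lower (5.84 ± 0.86 and 2.25 ± 0.22 CPM) and Cubn higher (0.43 ± 0.082 and 0.80 ± 0.18 CPM). The 6 trophoblast markers summed to between 16.1 and 18.5 CPM and between 13.1 and 15.1 CPM. Most of that came from Eomes, which was called lower (16.1 ± 1.35 and 13.2 ± 1.05 CPM). The 9 markers of muscle, liver and neurons summed to between 82.6 and 93.1 CPM and between 65.5 and 72.4 CPM, most of it from Tubb3, which fell (78.2 ± 5.64 and 54.3 ± 3.34 CPM, SD, n = 3). The other neuronal markers, Map2 (3.57 ± 0.29 and 6.58 ± 0.089 CPM) and Elavl3 (2.96 ± 0.29 and 5.81 ± 0.30 CPM), were called higher. The part of these lists in the results was not tested. In bulk RNA, fewer cells of a type and less RNA per cell cannot be told apart.

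All 35 genes passed the filter on low counts. In edgeR's quasi-likelihood test across all genes, 29 of the 35 (82.9%) differed between the times at an adjusted p under 0.05, against 62.8% of all 14889 genes tested. Of these, 16 (45.7%) were higher at 48 h, where 30.9% of all genes were, and 13 (37.1%) were lower, where 31.9% of all genes were. For 30 of the 35 (85.7%) the ranges at the times were separate, against 66.9% of all genes. Changes of at least 0.5 on the log2 scale were called for 12 of them (34.3%), against 24.9% of all genes, and 8 of those 12 were decreases. The median log2 fold change was 0.04, beside -0.01 over all genes, and the median size was 0.29, beside 0.26. Thus the set moved in both directions, and with library size as the only scaling 15 were called higher and 15 lower. Of the 7 genes with the highest CPM at 24 h, 5 rose, Slc2a3 fell and Aldoa was not called, while of the 8 genes under 10 CPM, 2 rose and 5 fell. Together the 35 genes took 12753 ± 123.7 CPM at 24 h and 13591 ± 33.7 CPM at 48 h (SD, n = 3 at each time).

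**Figure D1:**
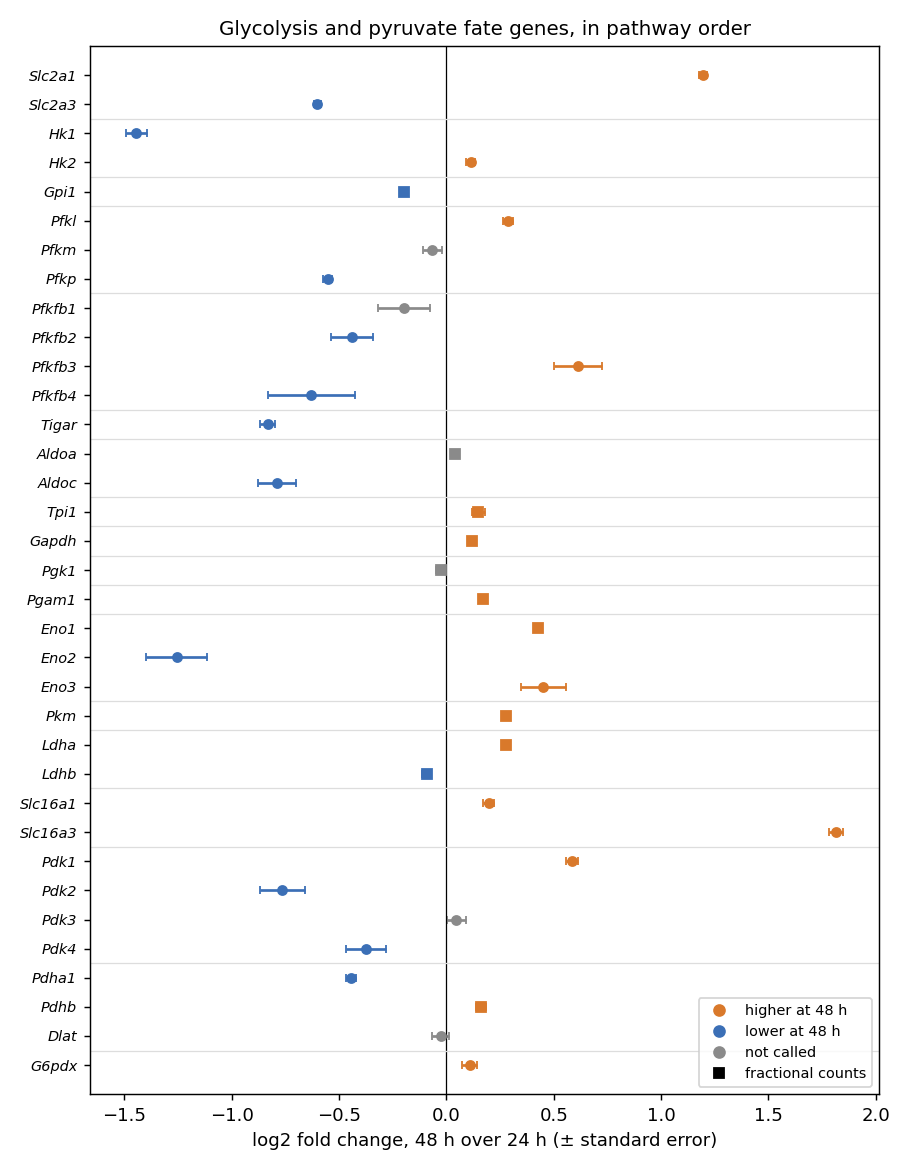
Log2 fold change of each gene, 48 h over 24 h, with its standard error, in the order of the pathway; orange marks genes called higher, blue genes called lower, grey genes not called, and squares genes with fractional counts. The largest rise is that of Slc16a3 (1.81) and the largest fall that of Hk1 (-1.44), and 16 genes lie to the right and 13 to the left among those called.

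Glucose uptake changed its main carriers in opposite directions. Slc2a1 encodes GLUT1, the widespread basal glucose transporter, and lies at chr4:119108711-119137983 (GRCm38, plus strand). It had 187.4, 185.3 and 188.5 CPM at 24 h and 428.2, 433.4 and 424.5 CPM at 48 h. Every 48 h library was more than 200 CPM above every 24 h library. The rise was 2.29-fold (log2 fold change, the fitted log2 ratio of 48 h to 24 h, 1.20 ± 0.02, standard error, with adjusted p = 1.96e-17). Slc2a3 encodes GLUT3, a transporter of high affinity for glucose, and lies at chr6:122727809-122801640 on the minus strand. It had 1703, 1667 and 1715 CPM at 24 h and 1144, 1117 and 1095 CPM at 48 h, with no overlap. Its log2 fold change was -0.60 ± 0.02 (adjusted p = 2.17e-14).

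Per kilobase of transcript, Slc2a3 remained the more abundant of the pair, at 428.2 ± 6.29 CPM per kb at 24 h and 282.5 ± 6.16 at 48 h (SD, n = 3), beside 57.4 ± 0.49 and 131.5 ± 1.36 for Slc2a1. The share of Slc2a1 in their summed level therefore rose from 11.8% ± 0.065 to 31.8% ± 0.44, while the sum itself fell from 485.6 ± 6.78 to 414.1 ± 6.76 CPM per kb. With the length of all exons of a gene in place of its principal transcript, the ratio of the sums was 0.963 rather than 0.853.

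Of the hexokinases, which phosphorylate glucose, Hk1 had the largest decrease of the set. Hk1 lies at chr10:62268855-62379908 on the minus strand. It had 87.7, 82.7 and 81.6 CPM at 24 h and 33.3, 31.1 and 28.2 CPM at 48 h. The highest 48 h value was under the lowest 24 h value by more than 40 CPM, and the log2 fold change was -1.44 ± 0.05 (adjusted p = 2.14e-13). Hk2, the hexokinase linked to growth and hypoxia, had 360.0, 352.1 and 364.8 CPM at 24 h and 381.4, 388.8 and 395.0 CPM at 48 h, a small rise without overlap (log2 fold change 0.11 ± 0.02, adjusted p = 0.00012). The log2 fold change of Hk2 was 0.05 with library size alone (adjusted p = 0.0263). Taken over Hk1 and Hk2 only, the share of Hk2 in the hexokinase step went from 74.9% ± 0.81 to 89.8% ± 0.91 (SD, n = 3, from CPM per kb). This change of 14.9 percentage points was 8.79 with exon union length. Adpgk, for an ADP-dependent glucokinase outside the set, was not part of the sum. It went from 77.6 ± 1.73 to 70.8 ± 1.14 CPM (log2 ratio -0.13 ± 0.03, adjusted p = 0.00196). Since Hk1 lost more than Hk2 gained, the summed level of the step fell from 86.9 ± 1.43 to 78.5 ± 0.59 CPM per kb, a ratio of 0.903 that was 0.982 with exon union length. Gpi1, the single gene for glucose-6-phosphate isomerase, fell as well, from 389.9 ± 4.55 to 340.6 ± 3.47 CPM (log2 ratio -0.19 ± 0.02, adjusted p = 1.03e-07).

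**Figure D2:**
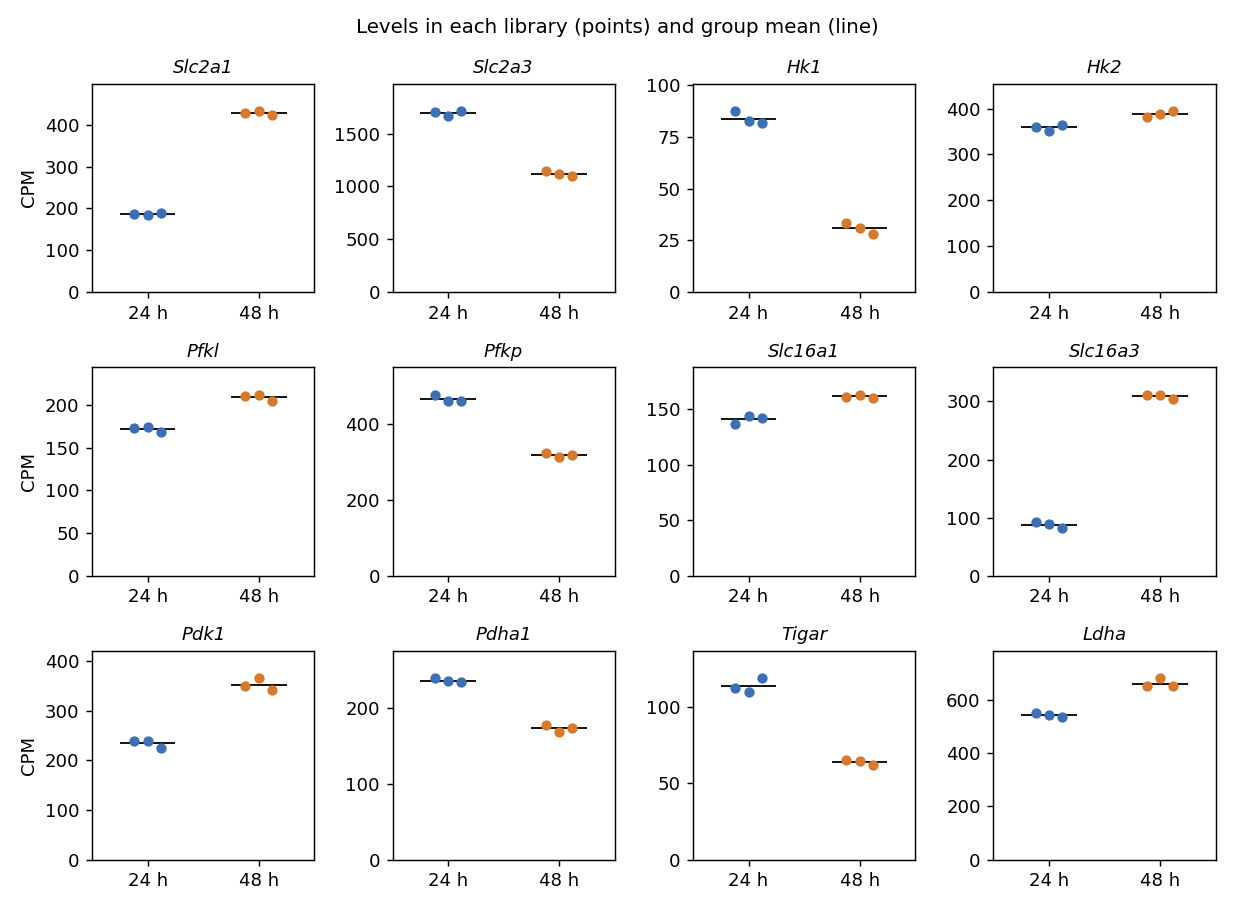
CPM of 12 genes in each library at 24 h (blue points) and 48 h (orange points), with the group mean as a line and each axis starting at 0. All 12 are among the 30 of the 35 genes whose ranges were separate, against 66.9% of all genes, so no panel shows overlap. Slc2a1, Slc16a3 and Pdk1 stand higher at 48 h, and Slc2a3, Hk1, Pfkp, Pdha1 and Tigar lower.

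Phosphofructokinase 1, the committing step, is a tetramer that can mix liver, muscle and platelet subunits. Pfkp, the platelet form, led at both times and had 477.0, 460.2 and 461.6 CPM at 24 h and 323.5, 312.1 and 318.1 CPM at 48 h (log2 fold change -0.55 ± 0.02, adjusted p = 5.61e-13). Pfkl, the liver form, had 172.6, 173.6 and 168.4 CPM at 24 h and 210.1, 212.1 and 204.9 CPM at 48 h (log2 fold change 0.29 ± 0.02, adjusted p = 1.67e-08). Neither gene's groups overlapped, and they moved in opposite directions. Pfkm, the muscle form, was near 50 CPM throughout, at 51.7 ± 1.75 and 49.4 ± 2.61 CPM, and was not called (adjusted p = 0.21). Scaled by library size alone, Pfkm was called lower (log2 fold change -0.13, adjusted p = 0.0219). In shares from CPM per kb, Pfkp went from 63.8% ± 0.50 to 51.2% ± 0.91 and Pfkl from 26.1% ± 0.39 to 37.4% ± 0.42. The summed level of the step fell from 176.4 ± 3.08 to 149.9 ± 1.93 CPM per kb. Exons of Pfkp and Pfkm overlap those of Pitrm1 and Senp1 on the opposite strand, and whether counting used strand is not given in the sources used here.

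Transcripts of the Pfkfb genes, whose products make and degrade fructose 2,6-bisphosphate, the main activator of phosphofructokinase 1, were scarce. All 4 Pfkfb genes, which encode bifunctional kinases and phosphatases of this metabolite, had a mean under 10 CPM at both times. Pfkfb3, the form with the highest ratio of kinase to phosphatase activity, had 7.01, 5.27 and 6.99 CPM at 24 h and 9.85, 9.14 and 10.6 CPM at 48 h (log2 fold change 0.62 ± 0.11, adjusted p = 0.000152). It was the only member of the family called higher. Pfkfb2 fell from 8.88 ± 0.88 to 6.55 ± 0.054 CPM (log2 ratio -0.44 ± 0.10, adjusted p = 0.00102), and its exons overlap those of Yod1 on the opposite strand. Pfkfb4 went from 2.64 ± 0.48 to 1.72 ± 0.34 CPM (log2 ratio -0.63 ± 0.20, adjusted p = 0.013), on 30 to 75 counts in a library. Its call was lost with DESeq2 (adjusted p = 0.0527) and when replicate 3 of 24 h (-0.47, adjusted p = 0.0956) or replicate 1 of 48 h was left out (-0.49, adjusted p = 0.0658). Pfkfb1 was not called (-0.20 ± 0.12, adjusted p = 0.166), and its exons overlap those of the more abundant Apex2 on the opposite strand. Without replicate 3 of 24 h it was called lower (-0.32, adjusted p = 0.0327). Tigar, which encodes a phosphatase that lowers fructose 2,6-bisphosphate, had 112.1, 109.9 and 118.5 CPM at 24 h and 65.3, 64.5 and 61.7 CPM at 48 h. Its groups were far apart (log2 fold change -0.83 ± 0.04, adjusted p = 3.38e-12).

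From aldolase to pyruvate kinase the abundant genes rose or were not called. Aldoa, the main aldolase gene, had 793.3, 792.5 and 764.0 CPM at 24 h and 804.3, 810.8 and 798.2 CPM at 48 h. These values did not overlap, but the change did not pass the test (log2 fold change 0.04 ± 0.02, adjusted p = 0.0639). Its call and sign depended on the scaling, with 0.05 under RLE scaling (adjusted p = 0.0317) and -0.02 with library size alone (adjusted p = 0.295), and it was also called higher by DESeq2 (adjusted p = 0.0418) and limma voom (adjusted p = 0.0353). Aldoc, the brain form, fell from 11.9 ± 0.66 to 6.89 ± 0.12 CPM (log2 ratio -0.79 ± 0.09, adjusted p = 6.58e-07) and held under 1% of the summed aldolase level at both times.

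Among the single genes of the triose steps, Tpi1, for triosephosphate isomerase, rose from 298.3 ± 14.5 to 330.5 ± 10.2 CPM (log2 ratio 0.15 ± 0.03, adjusted p = 0.000375). Gapdh, the most abundant gene of the set both in CPM and in CPM per kb, had 2351, 2369 and 2334 CPM at 24 h and 2532, 2543 and 2592 CPM at 48 h. This gene, often taken as a constant reference, was higher in all 3 libraries of 48 h (log2 fold change 0.12 ± 0.01, adjusted p = 8.84e-07). Its log2 fold change lay between 0.06 and 0.13 over the alternative fits. The ratio of its means was 1.04 with library size alone, rather than 1.09. Pgk1, for phosphoglycerate kinase, had 487.6, 474.0 and 459.6 CPM at 24 h and 458.7, 479.4 and 458.5 CPM at 48 h, with overlap, and was not called (-0.02 ± 0.02, adjusted p = 0.369). With library size alone it was called lower (-0.09, adjusted p = 0.0044). Pgam1, for phosphoglycerate mutase, rose from 763.1 ± 13.2 to 859.3 ± 6.85 CPM (log2 ratio 0.17 ± 0.02, adjusted p = 1.3e-07).

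Pkm, the pyruvate kinase gene, had 1979, 2004 and 1924 CPM at 24 h and 2394, 2394 and 2381 CPM at 48 h (log2 fold change 0.28 ± 0.02, adjusted p = 8.48e-11). The 48 h libraries were all above the 24 h libraries and lay close together. Pkm makes the M1 and M2 enzymes by choosing between mutually exclusive exons, and counts per gene do not separate them.

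Enolase showed the strongest rise among the core steps. Eno1, the ubiquitous form, lies at chr4:150236721-150248879 on the plus strand. It had 689.7, 687.1 and 676.7 CPM at 24 h and 908.2, 909.5 and 941.3 CPM at 48 h, a rise of 1.34-fold with no overlap (log2 fold change 0.43 ± 0.02, adjusted p = 2.01e-12). Eno3, the muscle form, rose from 6.86 ± 0.67 to 9.37 ± 0.97 CPM (log2 ratio 0.45 ± 0.11, adjusted p = 0.00139). Eno2, the neuronal form, had 5.31, 4.98 and 5.51 CPM at 24 h and 2.49, 1.83 and 2.30 CPM at 48 h (log2 fold change -1.26 ± 0.14, adjusted p = 9.91e-07). Both minor forms were far below Eno1. Of the level summed over Eno1, Eno2 and Eno3 only, Eno1 held 98.2% ± 0.13 at 24 h and 98.5% ± 0.16 at 48 h (from CPM per kb). This sum leaves out the near-identical Eno1b, which had more CPM than Eno1, with means of 1074 at 24 h and 1398 at 48 h.

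Eno1 is also the gene whose counts were most entangled with copies elsewhere in the genome. RSEM divides reads that fit several genes, and 11 of the 35 genes had fractional counts in at least 1 library. Eno1b, a copy annotated as protein-coding, matched the Eno1 transcript at 99.5% of 1736 aligned bases, with 9 mismatches. Gm4735, a processed pseudogene, matched it at 99.6% of 1302 bases, with 5 mismatches.

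Most of the estimated counts of the family went to the copies. Eno1 was given 13776, 14072 and 15966 estimated counts at 24 h and 19733, 19897 and 20869 at 48 h. Eno1b was given 21202, 22366 and 25182 at 24 h and 30906, 30914 and 30143 at 48 h, more than Eno1 in every library. Of the counts of these 3 genes, Eno1 held between 37.5% and 39.8%, Eno1b between 57.4% and 59.7% and Gm4735 between 2.14% and 3.40%. Eno1b also rose (log2 fold change 0.38 ± 0.02, adjusted p = 1.4e-11). When Eno1 was summed with its near-identical copies, a choice made after the data were seen, the level was 1810, 1833 and 1806 CPM at 24 h and 2382, 2385 and 2367 CPM at 48 h, and the log2 fold change was 0.39 ± 0.01 (adjusted p = 1.14e-13). The rise of the enolase transcripts as a family thus kept its direction and call, while the level of Eno1 itself is uncertain.

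**Figure D3:**
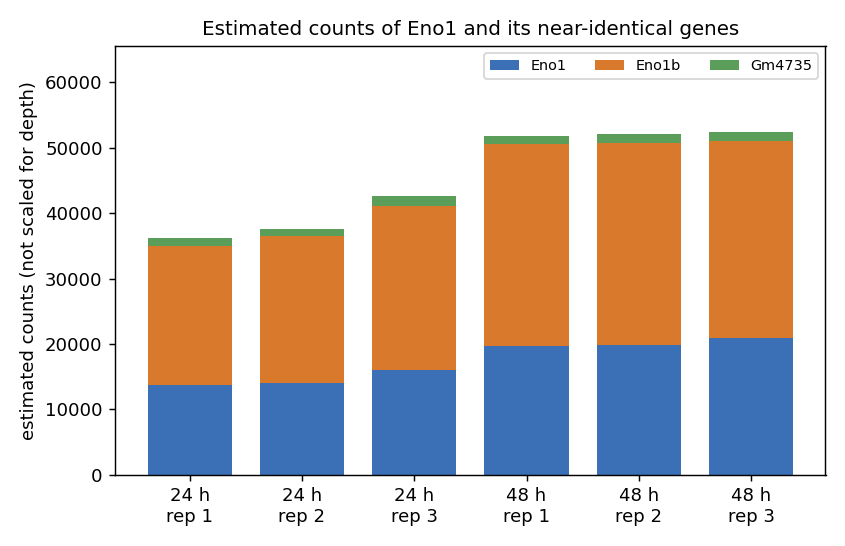
Estimated counts given to Eno1 (blue), Eno1b (orange) and the pseudogene Gm4735 (green) in each library, not scaled for depth. Eno1b takes the largest block in all 6 libraries, between 57.4% and 59.7% of the 3 genes.

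For the other genes with fractional counts the copies held less. Of the counts summed over Pgk1 and its near-identical copies, the copies held between 6.18% and 9.73%, nearly all in Gm5537, a processed pseudogene identical to Pgk1 over 1252 aligned bases. Summed with them, Pgk1 remained uncalled (log2 fold change -0.001, adjusted p = 0.96). Gapdh had 76 near-identical genes, the most in the set, and they held between 2.07% and 2.44%. Copies held between 2.0% and 2.63% for Pdhb, between 1.28% and 1.81% for Gpi1, and under 1% for Ldha, Ldhb, Pgam1, Pkm and Tpi1. Only copies at another locus were counted and summed. Gm49759, which overlaps Pkm on the same strand and matches it at 95.5% of 201 bases, was left out; it had 289.3, 361.0 and 367.1 counts at 24 h and 604.2, 641.9 and 560.9 at 48 h, and was called higher (log2 fold change 0.79 ± 0.08, adjusted p = 1.08e-07). No near-identical gene was found for Aldoa. Of the 11 genes, 7 were called higher, 2 lower and 2 were not called, where 30.9% of all genes were called higher and 31.9% lower. For the 10 with copies the direction and the call were the same after summing.

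The summed levels ran in opposite directions along the pathway. From CPM per kb, the ratio of 48 h to 24 h was 0.853 for glucose uptake, 0.903 for hexokinase, 0.874 for glucose-6-phosphate isomerase and 0.849 for phosphofructokinase 1. Further down it was 1.11 for triosephosphate isomerase, 1.09 for glyceraldehyde-3-phosphate dehydrogenase, 1.13 for phosphoglycerate mutase, 1.34 for enolase and 1.21 for pyruvate kinase. In each of these steps the libraries of the times did not overlap. Aldolase (1.02) and phosphoglycerate kinase (0.983) lay between. These ratios are descriptions of summed transcripts with no test of the order. With library size alone every ratio was lower, aldolase passed to 0.981, and the 4 early steps stayed below 1 while the 5 late ones stayed above it. With all exons as the length, glucose uptake and hexokinase were at 0.963 and 0.982. Enolase was at 1.31 when the near-identical copies, Eno1b among them, were summed in.

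**Figure D4:**
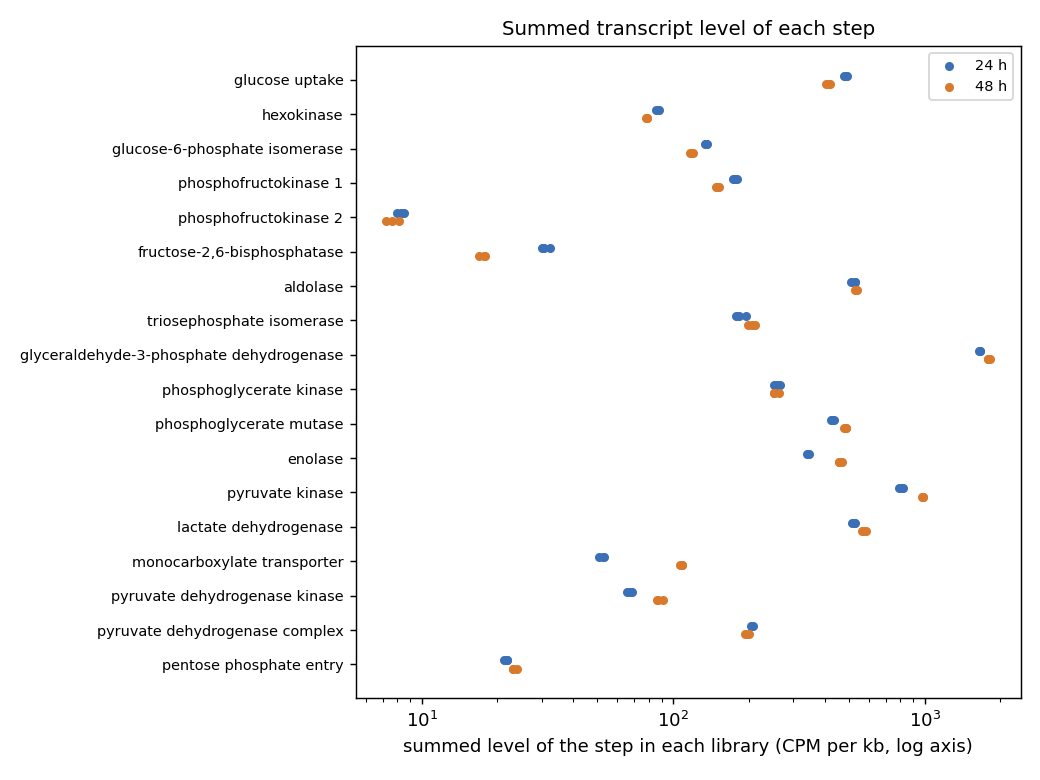
Summed transcript level of each step in every library, in CPM per kb on a log axis, with 24 h in blue and 48 h in orange. The early steps, from glucose uptake (485.6 against 414.1) to phosphofructokinase 1, stand lower at 48 h; enolase, pyruvate kinase and the monocarboxylate transporters (52.2 against 107.8) stand higher.

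At the branch to lactate, the genes of the lactate dehydrogenase subunits moved in opposite directions. Ldha, whose subunit favours the reduction of pyruvate, had 551.1, 544.2 and 536.4 CPM at 24 h and 649.8, 679.5 and 649.4 CPM at 48 h (log2 fold change 0.28 ± 0.02, adjusted p = 2.79e-09). Ldhb, whose subunit favours the oxidation of lactate, had 282.2, 280.5 and 274.3 CPM at 24 h and 258.4, 261.7 and 265.0 CPM at 48 h (log2 fold change -0.09 ± 0.02, adjusted p = 0.000908). Neither gene's groups overlapped. The share of Ldha in the summed level went from 59.0% ± 0.10 to 65.0% ± 0.66 (SD, n = 3, from CPM per kb).

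Lactate export had the largest change of the set. Slc16a3, which encodes MCT4, the low-affinity exporter of glycolytic cells, lies at chr11:120948480-120960868 on the plus strand. It had 93.5, 89.2 and 81.5 CPM at 24 h and 311.8, 311.7 and 304.0 CPM at 48 h. All 48 h libraries were more than 200 CPM above the highest at 24 h, and the rise was 3.52-fold (log2 fold change 1.81 ± 0.03, adjusted p = 1.19e-16). Slc16a1, for MCT1, rose less, from 140.9 ± 3.65 to 161.6 ± 1.36 CPM (log2 ratio 0.20 ± 0.03, adjusted p = 4.23e-06). Per kb, Slc16a1 was the higher of the pair at 24 h and Slc16a3 at 48 h, and the share of Slc16a3 in their sum went from 38.9% ± 2.08 to 66.1% ± 0.23. Their summed level went from 52.2 ± 1.11 to 107.8 ± 1.27 CPM per kb. Bsg, which encodes basigin, the chaperone that brings both transporters to the membrane, fell from 243.3 ± 3.79 to 214.7 ± 0.87 CPM (log2 ratio -0.18 ± 0.02, adjusted p = 1.06e-06).

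At the gate into the mitochondrion, the kinase that inactivates pyruvate dehydrogenase rose and the catalytic subunit fell. Pdk1, at chr2:71873224-71903858 on the plus strand, had 239.3, 239.2 and 225.3 CPM at 24 h and 349.5, 365.1 and 341.1 CPM at 48 h, a 1.5-fold rise with no overlap (log2 fold change 0.59 ± 0.03, adjusted p = 1.24e-11). Pdk2 and Pdk4, the forms typical of resting and fasting tissue, were under 10 CPM and fell, with log2 fold changes of -0.76 ± 0.10 and -0.37 ± 0.09 (adjusted p = 7.66e-06 and 0.00232). Pdk3 was at 33.7 ± 1.05 and 34.8 ± 1.19 CPM and was not called (0.05 ± 0.04, adjusted p = 0.388), with a sign that turned to -0.01 with library size alone. The share of Pdk1 among the kinases went from 67.3% ± 1.05 to 76.9% ± 0.27 (from CPM per kb), a change of 9.54 percentage points that was 6.06 from counts not divided by length. Their summed level went from 67.2 ± 1.55 to 88.3 ± 2.85 CPM per kb.

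Pdha1, the catalytic E1 alpha subunit that these kinases phosphorylate, had 239.3, 235.4 and 234.2 CPM at 24 h and 178.1, 169.3 and 173.4 CPM at 48 h (log2 fold change -0.44 ± 0.02, adjusted p = 5.68e-11). Pdhb, its E1 beta partner, rose from 158.5 ± 1.61 to 177.2 ± 3.95 CPM (log2 ratio 0.16 ± 0.02, adjusted p = 2.28e-05). The partners of the same enzyme thus moved in opposite directions without overlap. Dlat, the E2 core, was at 74.5 ± 4.50 and 73.2 ± 1.73 CPM, overlapped and was not called (-0.03 ± 0.04, adjusted p = 0.594). Without replicate 2 of 24 h its value was 0.02. Exons of Pdha1 overlap those of Map3k15 on the opposite strand, which had at most 201 counts in a library.

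G6pdx, the entry to the oxidative pentose phosphate pathway, had 58.0, 56.4 and 57.8 CPM at 24 h and 61.3, 63.6 and 61.0 CPM at 48 h. The groups did not overlap, but the rise was small (log2 fold change 0.11 ± 0.03, adjusted p = 0.0113). The call was lost with library size alone (0.05, adjusted p = 0.227) and when replicate 2 of 48 h was left out (0.09, adjusted p = 0.0502). Leaving out any other library gave adjusted p of at most 0.0455. Its exons overlap those of Ikbkg on the opposite strand, which had up to 571 counts in a library.

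The isoenzyme shares of 9 steps were compared over libraries. Of 24 shares, 22 did not overlap between the times, where the CPM of 66.9% of all genes did not overlap. The shares of a step sum to the whole, so they are not independent, and in a step of 2 genes they mirror each other. Each of the 22 had p = 0.1 in an exact permutation test (two-sided), the floor for 3 libraries against 3. After adjustment over the 24, p was 0.109. The shares of Pfkfb1 and Eno3 overlapped (exact p = 0.6 and 0.9). In percentage points, the share moved by 27.2 for Slc16a3, 19.9 for Slc2a1, 14.9 for Hk2 and -12.6 for Pfkp. With exon union length the change for Hk2 (8.79) was smaller in size than that for Pfkp (-11.8).

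**Figure D5:**
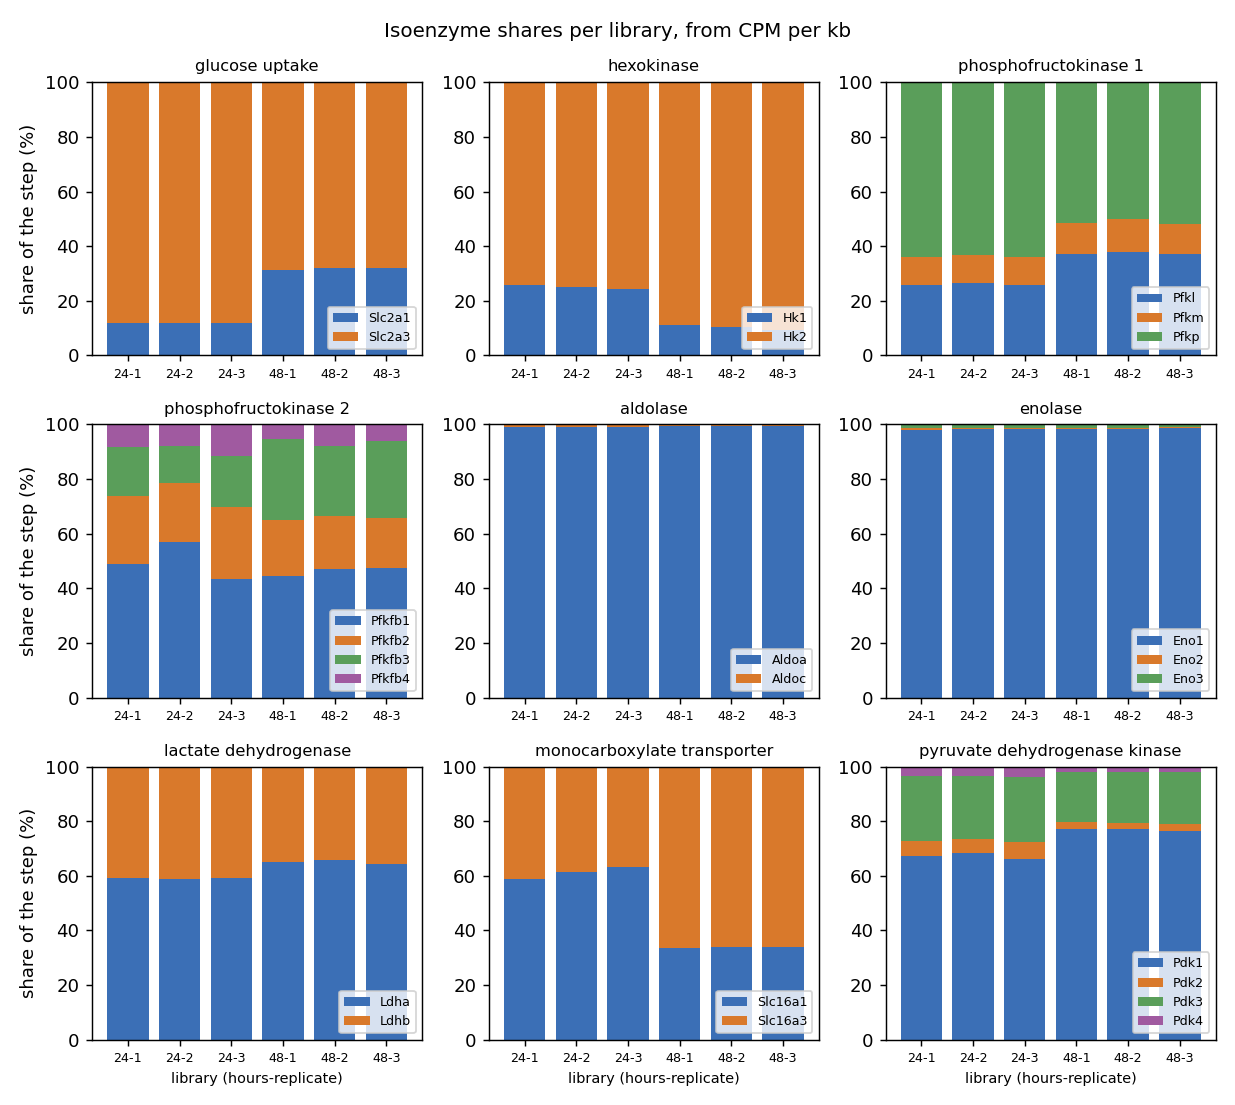
Share of each isoenzyme in its step, in percent of the summed CPM per kb, as stacked bars for each library, named by hours and replicate. Slc16a3 grows from 38.9% to 66.1% of its step and Slc2a1 from 11.8% to 31.8%. Aldolase and enolase keep a dominant form among the genes of the set in all 6 libraries, with Eno1b left out of the enolase sum.

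Slc16a3, Slc2a1 and Pdk1 had the largest rises among the genes above 50 CPM at 24 h and were picked for that. All are textbook targets of hypoxia-inducible factors, which bind the core ACGTG or GCGTG. The core also stood in windows of genes that did not rise, such as Pfkp (3 matches), which fell, and Pdk3 (4 matches), which was not called. The promoters of Slc16a3, Slc2a1 and Pdk1 are shown with the matches to that core, on either strand, in capitals. Each comes from the 250 bases before the RefSeq start (GRCm38.p6), printed 5′ to 3′ on the strand of the gene, which is the plus strand for all 3, and ends with its last match where the window runs into an annotated exon. For Slc16a3 the stretch is chr11:120948817-120949057, with matches 27 and 14 bases before the start, which lies 587 bases inside the gene as GENCODE annotates it. For Slc2a1 it is chr4:119108495-119108713, with matches 61 and 36 bases before the start, and for Pdk1 chr2:71872974-71873223, with a match 78 bases before the start of 1 of its 2 windows.
Slc16a3: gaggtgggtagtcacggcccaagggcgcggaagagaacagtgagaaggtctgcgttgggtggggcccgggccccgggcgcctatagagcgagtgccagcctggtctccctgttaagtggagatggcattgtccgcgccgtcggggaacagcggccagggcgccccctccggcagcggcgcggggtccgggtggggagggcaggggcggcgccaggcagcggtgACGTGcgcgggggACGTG
Slc2a1: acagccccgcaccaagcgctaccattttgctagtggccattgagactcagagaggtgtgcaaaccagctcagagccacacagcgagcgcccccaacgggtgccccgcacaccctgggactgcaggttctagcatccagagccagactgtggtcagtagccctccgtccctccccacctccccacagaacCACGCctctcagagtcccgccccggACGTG
Pdk1: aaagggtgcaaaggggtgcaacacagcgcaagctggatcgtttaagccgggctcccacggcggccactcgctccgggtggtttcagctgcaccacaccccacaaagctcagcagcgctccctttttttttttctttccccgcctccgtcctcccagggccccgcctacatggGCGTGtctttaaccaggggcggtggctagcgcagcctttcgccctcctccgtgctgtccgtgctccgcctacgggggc

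The table of RefSeq promoters held 53 windows for 34 of the 35 genes. The core was found in 39 of these windows (73.6%) and in 38.6% of all 32817 windows of the same length. Windows of the set were also richer in G and C, with a median of 60.4% against 52.4%, and the part of base composition in this difference was not tested. By direction, the core was in 19 of 22 windows of genes that rose, 12 of 17 of genes that fell and 8 of 14 of genes that were not called. These are counts of windows and not of genes. Some windows of a gene overlap, as in Eno1 and Aldoa, so a match can count more than once. The E-box CACGTG, which contains the core and is bound by MYC and MYCN, was in 6 windows of the set (11.3%) and in 6.02% of all windows. A match is a run of letters and not a measured site.

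Factors that act on glycolytic genes changed in both directions. All 10 genes of that list were called, where 62.8% of all genes were, 6 of them higher and 4 lower, and their median log2 fold change was 0.20. Hif1a, the oxygen-regulated subunit of the hypoxia-inducible factor, rose from 193.8 ± 5.12 to 246.0 ± 3.03 CPM (log2 ratio 0.34). Mycn rose from 122.3 ± 2.64 to 294.7 ± 10.5 CPM and Myc from 19.8 ± 0.55 to 30.5 ± 0.89 CPM, with log2 ratios of 1.27 and 0.62. Egln3, a prolyl hydroxylase that is itself a target of the factor, rose from 11.6 ± 1.21 to 32.7 ± 1.86 CPM. Vhl, Egln1 and Egln2, whose products mark the factor for destruction, had log2 fold changes of -0.41, -0.44 and -0.24. The prolyl hydroxylase genes thus moved in both directions, with Egln1 and Egln2 lower and Egln3 higher. Esrrb, a naive pluripotency factor that also binds metabolic genes, fell from 568.8 ± 12.7 to 204.8 ± 0.62 CPM (log2 ratio -1.47). The adjusted p of each of these genes was at most 4.7e-05.

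A further list held 14 targets of hypoxia-inducible factors outside glycolysis, not counting Egln3, which is described above and rose. Of these 13 were tested, and 3 rose, 7 fell and 3 were not called, where 30.9% of all genes rose and 31.9% fell. Their median log2 fold change was -0.25. Ndrg1, a stress-response gene, fell from 27.3 ± 0.68 to 6.05 ± 1.08 CPM (log2 ratio -2.17 ± 0.09, adjusted p = 4.3e-12). Ak4, a mitochondrial adenylate kinase, fell from 209.04 ± 11.7 to 56.5 ± 0.76 CPM (-1.89 ± 0.04, adjusted p = 2.78e-16). Kdm3a, a histone demethylase, and Mxi1, an antagonist of MYC, had log2 fold changes of -0.54 and -0.38. Ddit4, an inhibitor of mTORC1, and Bnip3, a receptor of mitophagy, rose by 0.78 and 0.64, and Higd1a by 0.14, a call that was lost with library size alone (0.08, adjusted p = 0.139) and with DESeq2 (adjusted p = 0.0624).

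Most other genes of these steps were scarce, with exceptions that include Adpgk and Bsg, described above. Of 18 further isoenzymes and partners, Bsg included, 9 were tested, with 1 called higher and 6 lower, where 30.9% and 31.9% of all genes were, and a median log2 fold change of -0.18. Slc2a2, Hk3 and Gapdhs had 0 counts in every library. Ldhd, for D-lactate dehydrogenase, and the testis and muscle forms Ldhc and Pgam2 had means under 4 CPM at both times and log2 fold changes of -1.45, -1.06 and -1.59. Slc2a4, for the insulin-responsive transporter GLUT4, was the gene called higher, with means under 2 CPM (0.49, adjusted p = 0.0461). Its call was lost with library size alone, with no filter, with DESeq2 (adjusted p = 0.168), with limma voom, with the replicate block (adjusted p = 0.0674) and without any of 5 libraries, with adjusted p up to 0.116.

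A list of 9 genes covered the entry of pyruvate into the mitochondrion and its use there, and also held Dlst, of a related complex that does not act on pyruvate. Of the 9, 2 rose, Dlst among them, and 4 fell, so 6 of 9 were called, near the 62.8% of all genes. Mpc1 and Mpc2, which form the mitochondrial pyruvate carrier, went from 16.9 ± 1.11 to 13.4 ± 0.27 CPM and from 10.4 ± 0.44 to 7.49 ± 0.51 CPM (log2 ratios -0.33 ± 0.07 and -0.48 ± 0.09, adjusted p = 0.000951 and 0.00021). Pdp2, a phosphatase that reactivates pyruvate dehydrogenase, fell by 0.18, and Pdpr, a regulatory subunit of that phosphatase, by 0.11, a call lost with DESeq2 (adjusted p = 0.103) and when replicate 2 of 24 h or replicate 1 or 3 of 48 h was left out (adjusted p up to 0.0799). Pcx, for pyruvate carboxylase, and Dlst, a subunit of the related oxoglutarate dehydrogenase complex, rose by 0.16 and 0.14. Among 7 further genes of the pentose phosphate pathway, 3 rose and 3 fell, beside 30.9% and 31.9% of all genes. H6pd, Taldo1 and Pgd had log2 fold changes of -0.41, -0.26 and -0.14, and Rpe, Pgls and Tkt of 0.29, 0.28 and 0.09. With library size alone Tkt, for transketolase, was not called (0.03, adjusted p = 0.105).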

How the data were processed

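The members and gene lists were chosen with earlier results of these data known. Per the submitters' processing notes, cutadapt 1.9.1, STAR 2.5.2, RSEM 1.3.0 and the build GRCm38 were used; annotation, strand setting and filters are not given in the sources used here. The authors deposited RSEM's estimated counts (expected counts) per gene, 1 column per sample, not scaled for depth or length. Symbols, lengths (longest principal transcript), coordinates and overlaps came from GENCODE M21, which matched 51633 of 51912 identifiers. Counts were rounded, filtered with filterByExpr (minimum count 10), scaled by TMM and tested with edgeR 4.0.16 (R 4.3.3; glmQLFit, glmQLFTest, group as the only term), adjusted by the Benjamini-Hochberg method over all 14889 genes. CPM are relative to TMM-scaled totals. The standard error is the log2 fold change divided by the square root of F. Near-identical genes had at least 95% identity over at least 200 bases (blastn 2.17.0); those at the member's own locus were left out. The naming rule took all members and, of each list, up to 4 called genes each way. Slc2a2, Hk3, Gapdhs, Pck1 and Adpgk were named after their values were seen. On simulated counts over 14889 genes the test recovered 40.9%, 74.6% and 83.6% of genes changed by 0.25, 0.5 and 1 (log2). The simulation changed only 66 or 67 genes of each size, where 62.8% of all genes were called in the data. Its recovery therefore does not measure that of this comparison. Alternatives were other scalings, filters, DESeq2 1.42.0, limma voom (3.58.1), unrounded counts, a threshold of 0.01, the replicate block, copies summed, other lengths and leaving out each library. The exon union length, the near-identical copies and the alternatives for summed step levels were chosen after seeing the data.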

Additional observations from a re-analysis of the deposited data

How the results depend on the processing

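Across 18 alternative fits the members called higher numbered 15 to 17 and those called lower 12 to 15, and 9 of the higher ones had whole-number counts. Of the log2 fold changes of single members, 559 were unchanged in direction and call, 7 fell below the threshold, 6 passed it and 3 changed sign: Aldoa (-0.022) and Pdk3 (-0.014) with library size alone and Dlat when a library was left out (-0.065 to 0.019). Library size alone moved the median of all genes from -0.01 to -0.07 and the summed aldolase ratio to -0.027 (log2). The single remaining isoenzyme called higher became 0 with library size alone, no filter, DESeq2, limma voom, a threshold of 0.01 and the replicate block, 2 with at least 10 counts in every library, and 0 to 1 when a library was left out. With counts not divided by length, the share changes in percentage points were -17.8 for Slc2a3, 11.6 for Hk2, 0.648 for Aldoa and 6.06 for Pdk1. With exon union length they were -25.6 for Slc2a3, 8.79 for Hk2 and 0.58 for Aldoa, and with copies summed 0.12 for Eno1. The Pfkfb1 share change of -3.24 ranged from -6.42 to 0.37 when a library was left out, with the positive value without replicate 2 of 24 h. The cause was not tested. With the replicate block, 16 members were higher and 13 lower, and it changed no member's call. Libraries of one number correlated at -0.046, -0.043 and -0.009 in their deviations, so the numbers were not taken as pairs. Low counts limit Pfkfb4 (30 to 75 in a library) and Eno2 (40 to 130).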

Other observations

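Gluconeogenesis and the citric acid cycle were measured alongside. Of 6 gluconeogenic genes 4 were tested and 3 fell, where 31.9% of all genes fell. Fbp2 and Fbp1, for fructose bisphosphatases, went from 3.14 ± 0.34 to 0.562 ± 0.099 CPM and from 1.95 ± 0.39 to 0.652 ± 0.327 CPM (SD, n = 3; log2 fold changes -2.47 and -1.56, adjusted p = 6.77e-08 and 0.000492 in edgeR's quasi-likelihood test). Pck2, for the mitochondrial phosphoenolpyruvate carboxykinase, fell from 98.01 ± 4.02 to 67.9 ± 2.71 CPM (log2 ratio -0.53 ± 0.04, adjusted p = 2.65e-09), while its cytosolic counterpart Pck1 had at most 1 count in a library.

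Of the 15 citric acid cycle genes, 9 fell, 3 rose and 3 were not called, where 31.9% of all genes fell and 30.9% rose. The median log2 fold change was -0.11, beside -0.01 over all genes. Sdha and Sdhc, subunits of succinate dehydrogenase, had log2 fold changes of -0.25 and -0.24 (adjusted p = 4.58e-08 and 1.82e-06), and Fh1, for fumarase, of -0.20. Suclg2, Idh3a and Ogdh rose by 0.23, 0.13 and 0.10. With library size alone Ogdh was not called (0.04, adjusted p = 0.14).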
